A study of Saccharomyces cerevisiae with 8 samples.

Results

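The genes described here encode the yeast proteasome, its transcriptional regulator Rpn4, the core assembly factor Ump1, polyubiquitin (*UBI4*) and the segregase Cdc48. The 36 genes were taken by name from a table of 6328, and all 36 were found. They comprise 14 subunits of the 20S core (7 in the alpha ring and 7 in the beta ring), 18 subunits of the 19S regulatory particle (10 in the base and 8 in the lid), *RPN4*, *UMP1*, *UBI4* and *CDC48*. RNA-seq was done on *Saccharomyces cerevisiae* Y128, which carries added xylose isomerase, xylulokinase and transaldolase genes and was evolved to ferment xylose. The 8 libraries form 4 groups of 2. *azf1Δ* cells lack *AZF1*, which encodes a zinc-finger transcription factor, and carry a *KanMX* cassette in its place, and their reference is Y128 without plasmid or drug (WT). *AZF1* MoBY cells carry *AZF1* on a MoBY plasmid and are set against MoBY control cells with the empty plasmid, both grown with 200 mg/L G418. All cultures grew without oxygen on 2% xylose and were collected in mid-log phase. The labels name the strain Y128 in every group, whereas the study's methods name Y133, a Y128 derivative with its resistance marker removed. How many transformants or deletion clones stand behind a group is not given in the sources used here.

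The proteasome degrades proteins that carry ubiquitin chains. In the 20S core, 2 outer alpha rings gate access to 2 inner beta rings, in which *PRE3* (β1), *PUP1* (β2) and *PRE2* (β5) encode the proteolytic subunits. The 19S base holds the Rpt ATPases that unfold substrates together with ubiquitin receptors such as Rpn10 and Rpn13, and the lid holds the deubiquitinase Rpn11. Rpn4 is a transcription factor that binds the proteasome-associated control element (PACE) upstream of proteasome genes. It is itself a short-lived proteasome substrate, so that in yeast its amount rises when degradation slows. The gene *RPN4* is in turn a known target of Hsf1, Pdr1, Pdr3 and Yap1.

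PACE was looked for because it is the sequence through which Rpn4 is known to reach these genes. GGTGGCAAA was searched on both strands in the 500 bases before the start codon of each protein-coding gene in the R64 assembly of strain S288C, with sequence and annotation from RefSeq. This is not the Y22-3 genome to which the reads were aligned, so a window may differ in Y128. The motif was present in 29 of the 36 windows (80.6%), against 99 of 6000 windows of all genes (1.65%). It was found for 12 of the 14 core subunits, 15 of the 18 regulatory particle subunits, *UBI4* and *CDC48*. The exact letters were not in the windows of *PRE5*, *PUP1*, *RPN13*, *RPN10*, *RPN8*, *UMP1* and *RPN4* itself. Each of the 29 genes had 1 match, 20 on the gene's own strand and 9 on the opposite strand, and its first base lay 84 to 183 bases before the start codon (median 124). The windows below are those of 3 members that passed a test, *PRE1*, *CDC48* and *RPN11*, of *UBI4*, whose match is on the opposite strand, and of *ECM29* and *TMC1*, proteasome-related genes outside the 36 that are described further on. Capitals mark PACE or its complement, and each is read 5′ to 3′ along the gene's strand.
PRE1 (chrV:177683-177711, plus strand): aaatctttacGGTGGCAAAaaataaagaa
CDC48 (chrIV:238787-238815, minus strand): atgtgaattcGGTGGCAAAaaaggacata
RPN11 (chrVI:153259-153287, plus strand): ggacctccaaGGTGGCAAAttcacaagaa
UBI4 (chrXII:65349-65377, minus strand): ggctccgggtTTTGCCACCtttgaattcg
ECM29 (chrVIII:39943-39971, plus strand): gccttttcttGGTGGCAAAaaaaaggtac
TMC1 (chrXV:427457-427485, minus strand): agaagggggcGGTGGCAAAgactgcatcg

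**Figure D1:**
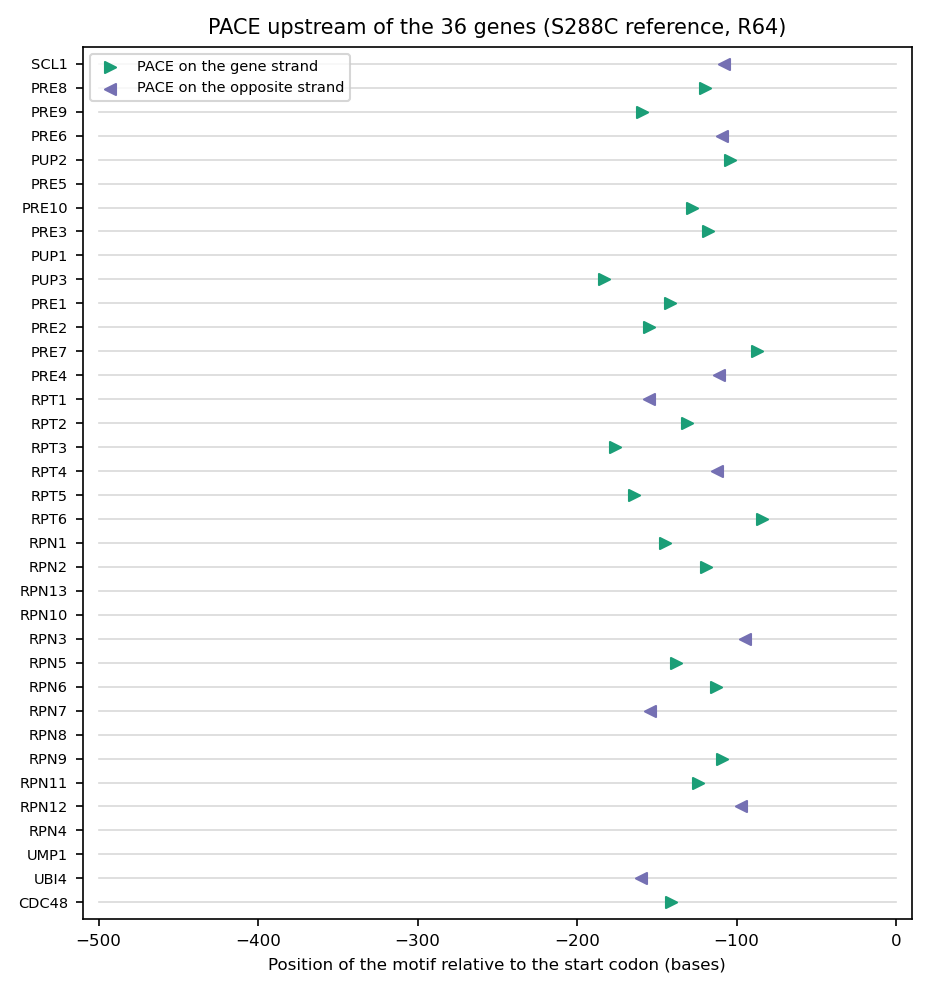
Position of PACE upstream of each of the 36 genes, in bases relative to the start codon (x axis), with right-pointing triangles for the gene's strand and left-pointing triangles for the opposite strand. The matches lie between 183 and 84 bases before the start codon, and 7 genes have none.

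*RPN4* and *UBI4*, the members with the largest rises below, were also searched for the heat shock element bound by Hsf1, here GAA and TTC units in alternation with 2 bases between them, on both strands. This search was chosen after their values had been seen. The element was in 89 of 6000 windows (1.48%) and in 2 of the 36, those of *RPN4* (2 matches) and *UBI4* (2 overlapping matches). Capitals mark it in the following windows on the gene's strand, and a match is a description of the reference sequence, not a binding site.
RPN4, 348 bases before the start codon (chrIV:417036-417064, minus strand): agtgatggTTCTAGAAAGTTCcgtttcgg
RPN4, 21 bases before the start codon (chrIV:416709-416737, minus strand): caaaagttTTCTAGAATTTTCaagcaatc
UBI4, 384 bases before the start codon (chrXII:65571-65599, minus strand): agtattgtTTCTAGAACGTTCtagaataa

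All 36 genes were above 1 RPKM (reads scaled by gene length and by the mapped reads of the library) in all 8 libraries. The steps between low RPKM values imply about 6182000 to 7128000 mapped reads per library, and the member with the fewest reads, *RPN13* at about 137 in 1 library, then has a counting error of 8.54%. Such errors cover counting only. RPKM is a share of a library's reads, so a lower share and less RNA per cell cannot be told apart. *AZF1* itself matched its labels, at 0.12 RPKM or less in *azf1Δ* and 11.6 and 13.2 in WT, and at 73.5 and 74.0 in *AZF1* MoBY and 13.3 and 14.3 in MoBY control. The resistance gene of the cassette and the plasmid was at 0.35 RPKM or less in WT and at 11.8 and 8.17 RPKM in *azf1Δ*. The paper lists Y128 as resistant to G418 and Y133 as without *KanMX*, and the WT level is that of cells without the cassette. The resistance gene differed between the plasmid groups, with 36.5 and 40.2 RPKM in *AZF1* MoBY and 68.6 and 90.5 RPKM in MoBY control. Its log2 fold change there was -1.02 ± 0.15 (SE, limma, adjusted p = 0.0110), so the 2 plasmid groups were not alike in this marker. The cause was not tested. Replicates of the 36 genes differed by a median of 0.07 on the log2 scale in *AZF1* MoBY, 0.17 in MoBY control, 0.12 in *azf1Δ* and 0.09 in WT. The largest gap between replicates was that of *RPN10* in MoBY control, with 38.9 and 60.5 RPKM.

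The median level per length was higher for core than for regulatory particle subunits in every library. Single genes overlapped, such as *RPN12* of the lid, which averaged 88.3 RPKM, above *PRE5* of the core at 58.9 RPKM. The median of the 14 core genes was 77.2 to 96.8 RPKM and that of the 18 regulatory particle genes 46.6 to 59.5 RPKM, a ratio of 1.63 to 1.94. Over the 8 libraries *PRE8* (α2) averaged 139.6 RPKM and *PUP3* (β3) 139.2 RPKM, a difference smaller than the SD between *PRE8* replicates in each group (3.26 to 15.6 RPKM), and both stood above *PRE3* (β1) at 116.0 RPKM. At the other end were the ATPase genes *RPT2* at 23.2 and *RPT6* at 27.7 RPKM, followed by the lid gene *RPN6* at 32.8 and the ATPase gene *RPT1* at 33.0 RPKM. Within a ring or sub-complex the highest was 2.06 to 4.63 times the lowest.

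The first question was whether extra *AZF1* altered these transcripts. *RPN4* and *UBI4* rose in *AZF1* MoBY relative to MoBY control, while *PRE1*, *PUP1* and *CDC48* fell. *RPN4* was at 210.8 RPKM in both *AZF1* MoBY libraries, against 148.1 and 160.9 RPKM in MoBY control. *UBI4*, which encodes ubiquitin as a head-to-tail chain, had 515.6 and 537.5 RPKM in *AZF1* MoBY and 367.1 and 290.0 RPKM in MoBY control. The groups did not overlap for either gene, and the log2 fold changes were 0.45 ± 0.09 (SE) for *RPN4* and 0.69 ± 0.13 for *UBI4* (limma, 4 libraries, adjusted p = 0.0227 and 0.0207).

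*PRE1*, the gene of the β4 subunit, was at 73.5 RPKM in both *AZF1* MoBY libraries, against 108.4 and 114.6 RPKM in MoBY control. *PUP1*, for the trypsin-like β2 subunit, had 64 and 61.0 RPKM in *AZF1* MoBY and 84.4 RPKM in both MoBY control libraries. *CDC48*, whose product extracts ubiquitinated proteins from complexes and membranes, had 148.1 RPKM in both *AZF1* MoBY libraries and 191.3 and 183.5 RPKM in MoBY control. For these 3 genes both *AZF1* MoBY libraries lay below both MoBY control libraries. Their log2 fold changes were -0.59 ± 0.09, -0.43 ± 0.09 and -0.34 ± 0.08 (SE, limma, adjusted p = 0.0104, 0.0280 and 0.0421). *UMP1* had 105.4 and 104.0 RPKM in *AZF1* MoBY and 124.5 and 103.2 RPKM in MoBY control, where the groups overlapped (log2 fold change -0.11, adjusted p = 0.554).

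In all, 2 of the 36 genes rose and 3 fell, against 10.2% and 6.17% of the 6029 genes tested. The counts of the 36 are near these backgrounds, and no departure from them is read here. *PRE1* was the 1 member still called without the variance trend, and without either *AZF1* MoBY library no gene of the table was called. The call on *CDC48* was also lost after rescaling the libraries to a common median ratio (adjusted p = 0.0916), whereas a fit of all 8 libraries called 6 members lower.

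All 14 core genes had a lower mean in *AZF1* MoBY, beside 49.6% of all genes tested. Their median log2 fold change was -0.19, although 2 of them passed the test. After the rescaling 13 of 14 had a lower mean, the exception being *PRE7*, with a median of -0.15. The beta ring (median -0.31) lay further down than the alpha ring (-0.18). *PUP3* (β3, 121.9 and 125.4 against 150.1 and 168.9 RPKM) and *PRE2* (β5, 54.2 and 55.7 against 70.0 and 67.2 RPKM) also had groups that did not overlap, but not a passing test (limma, adjusted p = 0.0548 and 0.0728).

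Of the 18 regulatory particle genes 13 had a lower mean in *AZF1* MoBY (median -0.13), beside 49.6% of all genes tested. None passed the limma test. At an unadjusted p under 0.05 were 3 of the 18, all lower, beside 865 of the 6029 genes tested that were lower at this p. *RPN13*, the gene of a ubiquitin receptor, had 72.0 and 68.6 RPKM in *AZF1* MoBY and 60.5 and 61.4 RPKM in MoBY control, the 1 subunit gene whose groups were apart in the upward direction. Over all 36 genes both *AZF1* MoBY libraries were below both MoBY control libraries for 17 and above for 3, against 28.1% and 30.9% of all genes tested. The median of the 36 genes was -0.14, beside 0.00 for all genes tested. As sums, the core amounted to 1181 and 1169 RPKM in *AZF1* MoBY and 1365 and 1397 RPKM in MoBY control.

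**Figure D2:**
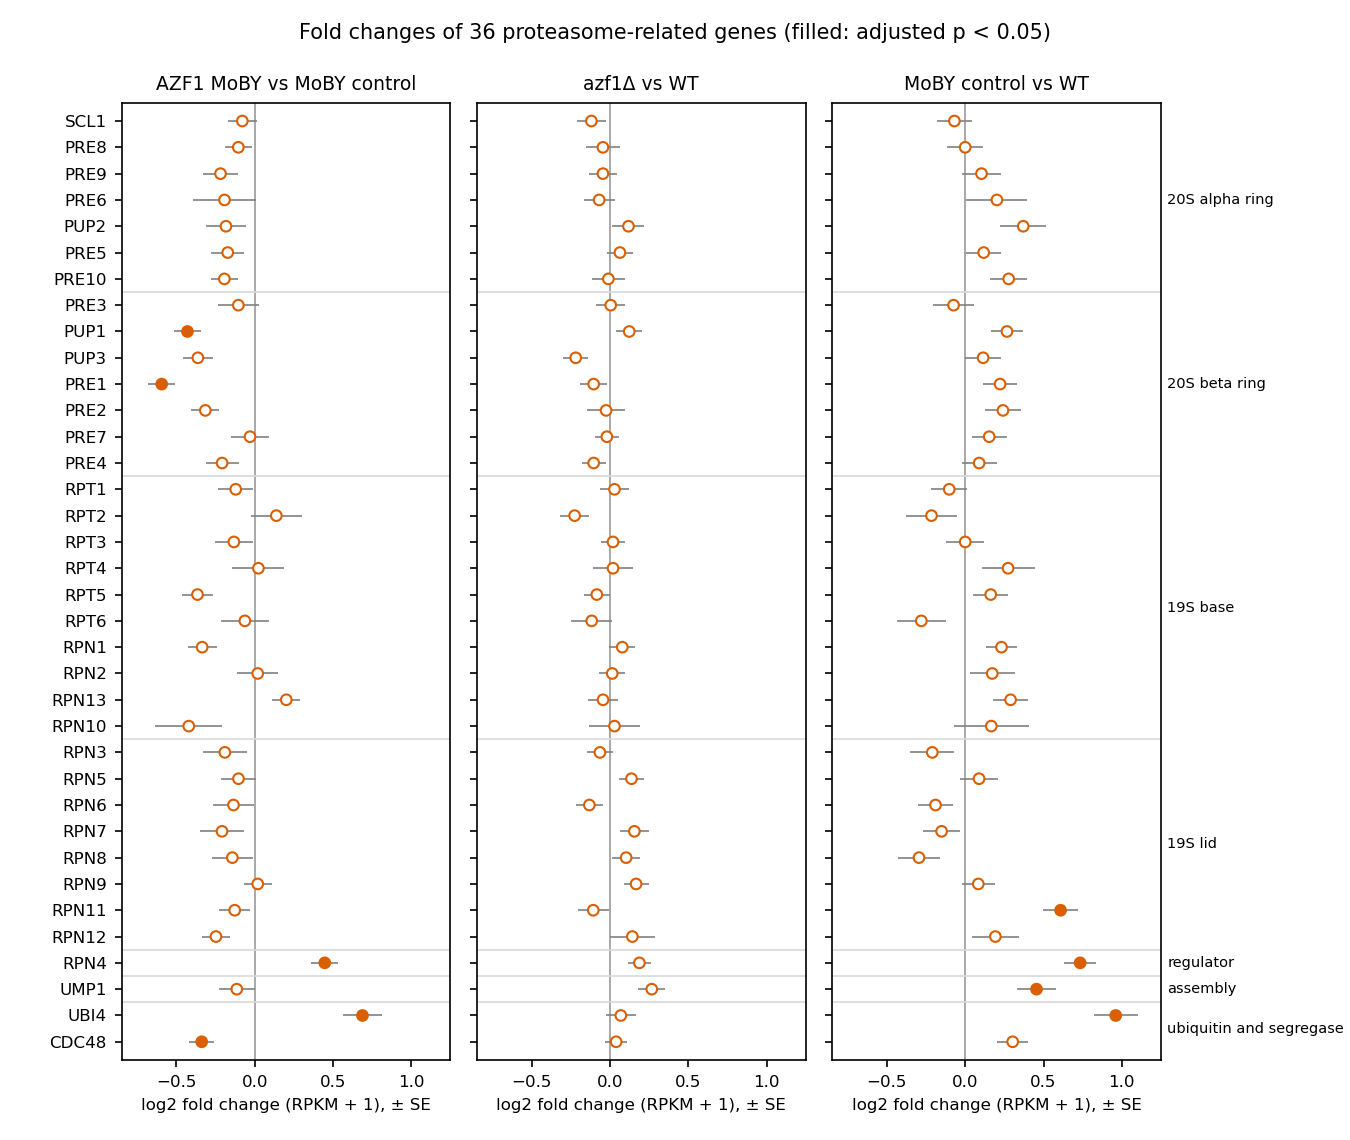
Log2 fold change of each of the 36 genes on the log2(RPKM + 1) scale (x axis) with its standard error, for *AZF1* MoBY vs MoBY control, *azf1Δ* vs WT and MoBY control vs WT, with 2 libraries per group. Filled points passed an adjusted p of 0.05, which are 5, 0 and 4 genes in the 3 panels, and in the first panel all 14 core genes lie left of 0.

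Loss of *AZF1* gave no change in these genes that passed the test. In *azf1Δ* relative to WT none of the 36 was called by limma, and 3 had an unadjusted p under 0.05: *UMP1* and *RPN4* higher, *PUP3* lower. Of all 5944 genes tested, 0.942% were called higher and 0.791% lower, and 1048 had an unadjusted p under 0.05. *RPN4* had 103.2 and 107.6 RPKM in *azf1Δ*, against 93.7 and 91.1 RPKM in WT (log2 fold change 0.19 ± 0.07, adjusted p = 0.274). *UMP1*, with 94.4 and 104.7 RPKM in *azf1Δ* and 81.0 and 83.9 RPKM in WT, had the largest positive value (0.27 ± 0.08, adjusted p = 0.192). The lowest value was that of *RPT2*, at 21.7 and 21.4 RPKM in *azf1Δ* and 24.6 and 26.2 RPKM in WT (-0.23 ± 0.09, adjusted p = 0.287).

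For *RPN4*, *UMP1* and *RPT2* the groups did not overlap. Both *azf1Δ* libraries were above both WT libraries for 9 of the 36 genes and below for 7, against 30.7% and 17.6% of all genes tested. *UBI4* had 164.3 and 187.4 RPKM in *azf1Δ* and 159.8 and 174.9 RPKM in WT, and the groups overlapped (log2 fold change 0.07, adjusted p = 0.754). *CDC48* had 157.6 and 154.3 RPKM in *azf1Δ* and 152.2 and 151.2 RPKM in WT (0.04, adjusted p = 0.818). The median of the 36 was 0.01, beside 0.04 for all genes tested.

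Whether the 2 changes in *AZF1* dosage differed in their effect was tested as the *AZF1* MoBY effect minus the *azf1Δ* effect in a fit of all 8 libraries. The *AZF1* MoBY effect was measured with plasmid and G418 and the *azf1Δ* effect without either. A difference due to *AZF1* dosage therefore cannot be told apart from one due to that setting. The test gave 1 gene with a higher and 3 with a lower *AZF1* MoBY effect, against 7.9% and 6.8% of the 6105 genes tested. *UBI4* was the higher one (difference of log2 fold changes 0.62 ± 0.17, SE, adjusted p = 0.0458). *PUP1* (-0.55 ± 0.12, adjusted p = 0.0162), *PRE1* (-0.49 ± 0.12, adjusted p = 0.0288) and *CDC48* (-0.38 ± 0.10, adjusted p = 0.0380) were the lower ones. The calls on *UBI4* (0.45 to 0.79 over the alternatives), *CDC48* (-0.41 to -0.29) and *PRE1* (-0.55 to -0.40) were lost in most alternatives. For *RPN4* the difference was 0.26 ± 0.11 (adjusted p = 0.148), so its rise in *AZF1* MoBY is not shown to differ from its value in *azf1Δ*. The 4 calls became 1 without the variance trend, 2 after rescaling, and 0 to 6 when 1 library was left out.

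The largest changes in *RPN4*, *UBI4* and *UMP1* separated the empty-plasmid strain from WT. MoBY control and WT differ in the plasmid and in G418, which cannot be told apart here. *RPN4* had 148.1 and 160.9 RPKM in MoBY control and 93.7 and 91.1 RPKM in WT, a log2 fold change of 0.73 ± 0.10 (SE, limma, adjusted p = 0.0042). *UBI4* had 367.1 and 290.0 RPKM in MoBY control, against 159.8 and 174.9 RPKM in WT (0.96 ± 0.14, adjusted p = 0.0051). *RPN11*, encoding the deubiquitinase of the lid, had 46.2 and 49.2 RPKM in MoBY control and 31.3 and 30.5 RPKM in WT (0.61 ± 0.11, adjusted p = 0.0107). *UMP1*, whose product guides the joining of core precursors and is then degraded, had 124.5 and 103.2 RPKM in MoBY control and 81.0 and 83.9 RPKM in WT (0.46 ± 0.12, adjusted p = 0.0434).

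For these 4 genes both MoBY control libraries were above both WT libraries. The call on *UMP1* was lost without the filter on low values (adjusted p = 0.0578), without the variance trend (0.0910) and after rescaling (0.0542). Leaving out either WT library left 0 members called, and leaving out either MoBY control library left 1. The calls on *RPN11* and *UMP1* were lost whichever library was left out, with fold changes of 0.56 to 0.65 and 0.32 to 0.59. *RPN11* was the 1 gene of the 32 subunit genes that rose, and in *AZF1* MoBY it had 42.8 and 44.3 RPKM. *CDC48*, with 191.3 and 183.5 RPKM in MoBY control and 152.2 and 151.2 RPKM in WT, missed the threshold (0.30 ± 0.10, adjusted p = 0.0719). No member was called lower by limma, and none was lower at an unadjusted p under 0.05, beside 1080 of the 5991 genes tested. The lowest value was that of *RPN8*, the lid partner of *RPN11*, with 48.8 and 61.0 RPKM in MoBY control and 68.6 and 65.8 RPKM in WT (-0.29 ± 0.14, adjusted p = 0.173).

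The 4 genes called higher compare with 13.2% of the 5991 genes tested that were higher and 10.6% that were lower. Of the 14 core genes 11 had a higher mean in MoBY control (median log2 fold change 0.14), as did 11 of the 18 regulatory particle genes (0.09). Among all 5991 genes tested 2865 had a higher mean. Both MoBY control libraries lay above both WT libraries for 15 of the 36 genes and below for 6, against 30.4% and 32.6% of all genes tested. The median of the 36 was 0.16, beside -0.02 for all genes tested. Of the regulatory particle genes 5 lay above and 6 below, and of the core genes 6 lay above. Because the MoBY control libraries serve in this comparison and as the reference of *AZF1* MoBY, a value that is high in them raises one fold change and lowers the other. Summed core transcripts, set side by side, were 1181 and 1169 RPKM in *AZF1* MoBY, 1365 and 1397 in MoBY control, 1255 and 1184 in *azf1Δ* and 1219 and 1293 in WT.

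**Figure D3:**
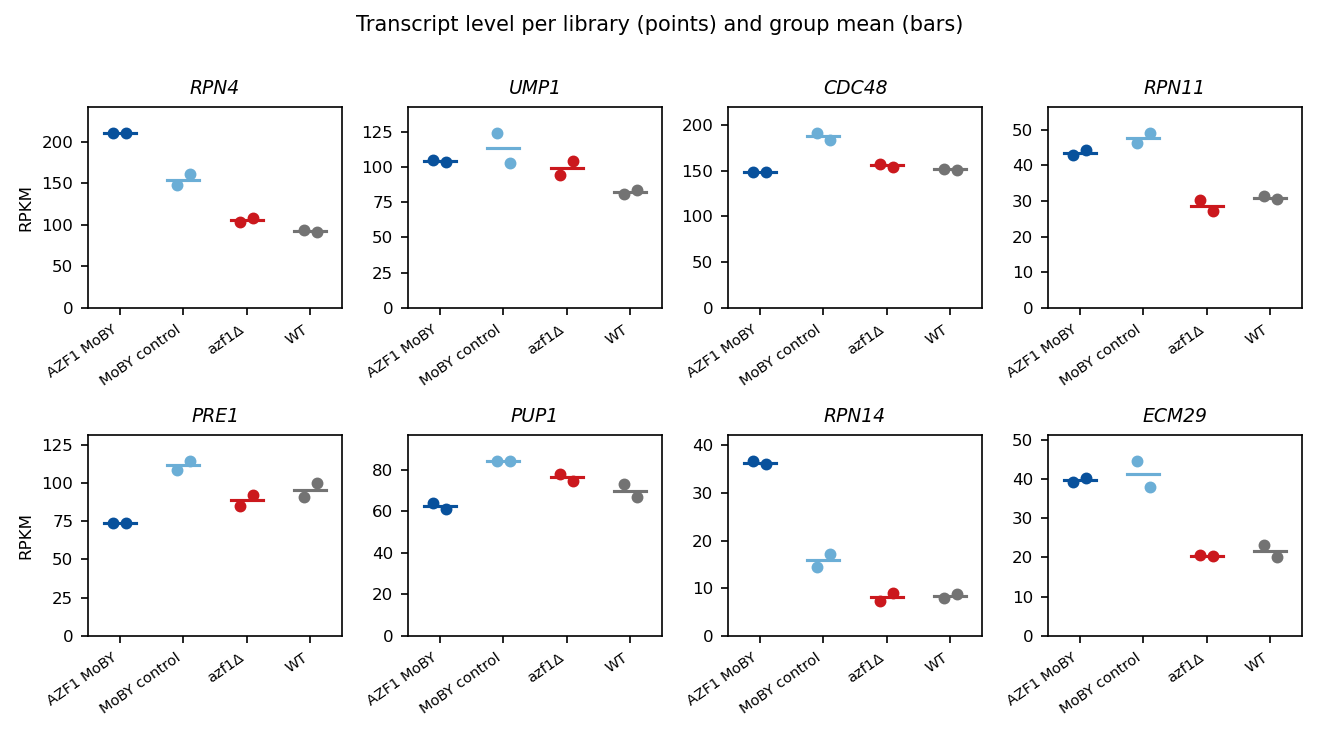
RPKM per library (points, y axis from 0) and group mean (bars) of *RPN4*, *UMP1*, *CDC48*, *RPN11*, *PRE1*, *PUP1* and of *RPN14* and *ECM29* from the accessory genes, in *AZF1* MoBY, MoBY control, *azf1Δ* and WT. *RPN4* is highest in *AZF1* MoBY at 210.8 RPKM and lowest in WT at 91.1 and 93.7 RPKM, whereas *PRE1* is lowest in *AZF1* MoBY at 73.5 RPKM.

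The level of *RPN4* relative to the subunit genes differed between the groups. *RPN4* was 3.45 and 3.63 times the median of the 32 subunit genes in *AZF1* MoBY and 2.34 and 2.44 times in MoBY control. In *azf1Δ* it was 1.66 and 1.70 times, and in WT 1.56 and 1.40 times. The median of the 32 subunit genes itself ranged from 58.1 to 65.8 RPKM over the 8 libraries. The medians of its parts ranged more widely, from 77.2 to 96.8 RPKM for the core and from 46.6 to 59.5 RPKM for the regulatory particle. *RPN4* ranged over 91.1 to 210.8 RPKM in the same libraries, and the Rpn4 protein was not measured.

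Genes with and without PACE were called in both plasmid comparisons. In MoBY control relative to WT, 2 of the 29 members with PACE rose and 2 of the 7 without it, *RPN4* and *UMP1*. The median log2 fold change was 0.11 with PACE and 0.27 without it. Among genes outside the 36, 13 of 66 with PACE rose (19.7%) and 3 fell (4.55%), beside 13.1% and 10.5% of 5378 genes without it. In *AZF1* MoBY relative to MoBY control, 7 of these 66 rose (10.6%) and 3 fell (4.55%), beside 9.69% and 6.5% of 5400 genes without PACE. Of the members there, 1 rose and 2 fell among the 29 with PACE, and 1 rose and 1 fell among the 7 without it. The median log2 fold change of the members was -0.14 with PACE and -0.14 without it. No test was made of these shares. The 66 genes include *ECM29* and *TMC1*. A window can also reach into that of a neighbour read in the other direction, so some may hold a member's own site.

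Of 17 further assembly and accessory genes, 1 rose in *AZF1* MoBY relative to MoBY control and none fell by the limma test, beside 10.2% and 6.17% of all genes tested. At an unadjusted p under 0.05, 3 of the 17 were higher and 1 was lower, beside 1054 and 865 of the 6029 genes tested. The riser was *RPN14*, for a chaperone of 19S base assembly, at 36.8 and 36 RPKM in *AZF1* MoBY and 14.4 and 17.3 RPKM in MoBY control (log2 fold change 1.16 ± 0.13, SE, adjusted p = 0.0051). *RPN14* was also higher in MoBY control than in WT, where it had 7.9 and 8.8 RPKM (0.84 ± 0.16, adjusted p = 0.0124), and it had 7.4 and 9.0 RPKM in *azf1Δ*. In *AZF1* MoBY relative to MoBY control its fold change exceeded that of each of the 36 genes. In the difference of effects 2 of the 17 genes were called higher and 0 lower, beside 7.9% and 6.8% of all genes tested. They were *RPN14* (1.19 ± 0.20, SE, limma, adjusted p = 0.0069) and *ADD66* (0.60 ± 0.13, adjusted p = 0.0156).

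In MoBY control relative to WT 4 of the 17 rose and 1 fell, beside 13.2% and 10.6% of all genes tested. *TMC1*, a zinc-finger gene, had 79.3 and 95.7 RPKM in MoBY control and 41.9 and 47.2 RPKM in WT (log2 fold change 0.95 ± 0.13, SE, adjusted p = 0.0043). *ECM29*, whose product binds both core and regulatory particle, had 44.6 and 38.1 RPKM in MoBY control and 23.1 and 20.1 RPKM in WT (0.90 ± 0.14, adjusted p = 0.0061). Both carry PACE, as shown above. The motif also precedes *CUZ1* of the 17 and *UBA1* and *YAP1* of the lists below, which were not called here (limma, adjusted p = 0.0742, 0.679 and 0.780). *FUB1*, for a proteasome-binding protein, was the fourth after *RPN14* (0.62 ± 0.17, adjusted p = 0.0411). The call on *FUB1* was lost without the filter on low values (0.0691), without the variance trend (0.0615) and when any 1 library was left out (0.0994 to 0.259). The gene that fell was *ADD66*, for a chaperone of alpha ring assembly, named after its values were seen (29.7 and 27.9 RPKM in MoBY control, 40.2 and 42.5 in WT, -0.51 ± 0.11, adjusted p = 0.0223). No PACE match was found for *RPN14*, *FUB1* or *ADD66*.

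Ubiquitin itself comes from several genes, and these did not move together. *UBI4* rose in both plasmid comparisons, whereas the ribosomal fusions *RPS31* and *RPL40A*, each of which encodes 1 ubiquitin joined to a ribosomal protein, fell. *RPS31* had 560 and 537 RPKM in *AZF1* MoBY and 843 and 917 RPKM in MoBY control (log2 fold change -0.68 ± 0.09, SE, adjusted p = 0.0069), and 1160 and 1252 RPKM in WT. *RPL40A* had 142 and 146 RPKM in *AZF1* MoBY and 228 and 258 RPKM in MoBY control (-0.75 ± 0.09, adjusted p = 0.0068), and 399 and 402 RPKM in WT. MoBY control relative to WT gave -0.45 ± 0.12 for *RPS31* (adjusted p = 0.0378, named after its values were seen, and 0.0567 without the filter on low values) and -0.72 ± 0.11 for *RPL40A* (adjusted p = 0.0059). The 3 genes share ubiquitin sequence, and *RPL40A* has a near-identical copy, so how reads were divided among them is uncertain.

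**Figure D4:**
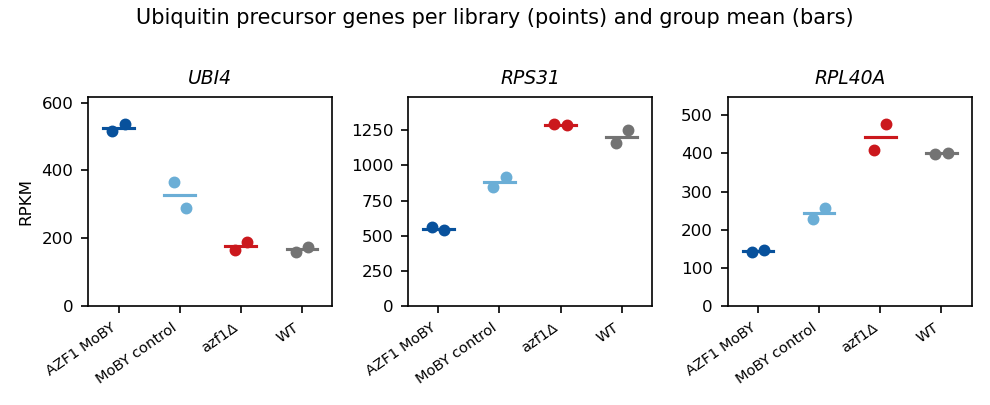
RPKM per library (points, y axis from 0) and group mean (bars) of *UBI4*, *RPS31* and *RPL40A* in *AZF1* MoBY, MoBY control, *azf1Δ* and WT. *UBI4* is highest in *AZF1* MoBY at 515.6 and 537.5 RPKM, where *RPS31* (560 and 537 RPKM) and *RPL40A* (142 and 146 RPKM) are lowest.

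In the ubiquitin pathway list of 27 tested genes, *RPL40A*, *RPS31* and *RSP5*, an essential ubiquitin ligase, fell in *AZF1* MoBY relative to MoBY control. By the limma test 0 of the 27 rose, and of all genes tested 6.17% fell and 10.2% rose. At an unadjusted p under 0.05, 1 of the 27 was higher and 7 were lower, beside 1054 and 865 of the 6029 genes tested. *RSP5* had 91.1 and 93.1 RPKM in *AZF1* MoBY and 117.0 and 129.8 RPKM in MoBY control (log2 fold change -0.42 ± 0.09, SE, adjusted p = 0.0354). Its call was lost without the variance trend (adjusted p = 0.0952), with the replicate block (0.0618) and without either *AZF1* MoBY library or MoBY control replicate B (0.0721 to 0.295). In MoBY control relative to WT 5 of the 27 rose and 4 fell, which is near the 13.2% and 10.6% of all genes tested. The ubiquitin-conjugating enzyme genes *RAD6* (0.77 ± 0.20, adjusted p = 0.0355) and *UBC7* (0.69 ± 0.12, adjusted p = 0.0083) were among those that rose. The call on *RAD6* was lost without the filter on low values (0.0654) and without the variance trend (0.0658), and its fold change was 0.48 without MoBY control replicate B and 1.06 without replicate A. *DSK2*, for a protein that shuttles ubiquitinated substrates to the proteasome, fell (-0.65 ± 0.13, adjusted p = 0.0152), next to *RPL40A*. In *azf1Δ* relative to WT no gene of the accessory or ubiquitin pathway lists was called by limma. At an unadjusted p under 0.05 were 3 and 2 of them, beside 1048 of the 5944 genes tested. In the difference of effects 5 of the 27 were lower and 0 higher, beside 6.8% and 7.9% of all genes tested. The largest were *RPL40A* (-0.89 ± 0.14, SE, limma, adjusted p = 0.0055), *RPS31* (-0.78 ± 0.12, adjusted p = 0.0056), *SAN1* (-0.63 ± 0.14, adjusted p = 0.0210) and *MUB1* (-0.53 ± 0.15, adjusted p = 0.0489). The call on *MUB1* was lost in most alternatives.

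Of the 4 genes known to control *RPN4*, *PDR1*, which encodes a regulator of drug resistance, rose in MoBY control relative to WT, beside 13.2% of all genes tested. Its level was 19.2 and 17.6 RPKM in MoBY control, against 11.8 and 11.0 RPKM in WT (log2 fold change 0.65 ± 0.14, SE, limma, adjusted p = 0.0185). It had 23.6 and 24.3 RPKM in *AZF1* MoBY and 13.8 and 12.6 RPKM in *azf1Δ*. Its call was lost whichever library was left out. In MoBY control relative to WT the same held for *RPN14*, *ECM29*, *FUB1*, *ADD66*, *UBC7* and *RPS31*. The calls there on *TMC1*, *RAD6*, *DSK2* and *RPL40A* were lost without either WT library, though not in every such fit. *HSF1*, *PDR3* and *YAP1* passed in no comparison. Protein activity, through which these factors are mostly controlled, was not measured.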

How the data were processed

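RNA from 8 cultures, 2 per group, was depleted of rRNA and made into strand-specific libraries. Per the methods and the submitters' processing notes, the authors trimmed reads with Trimmomatic 0.3.0, aligned them with Bowtie2 2.2.2 to the Y22-3 genome and counted them per gene with HTSeq 0.6.0. The strand setting of the counting is not given in the sources used here. The authors deposited log2 RPKM to 2 decimals for 6328 genes, and read counts were not used here.

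The log2 values were undone, 1 RPKM was added and log2 taken again, and limma 3.58.1 (R 4.3.3, variance trend) was fitted to every gene that reached 1 RPKM in 2 or more libraries of the comparison. Fold changes on this scale understate those of low genes. Each comparison used its own 4 libraries, and the difference of effects all 8. A Benjamini-Hochberg adjusted p under 0.05 over all genes tested was called a change, and "rose" and "fell" refer to such calls. Groups come from the labels, which letter duplicates A and B. Duplicates were collected on different days, and p-values measure only the spread between such cultures. The script was tested on simulated data. Depth was inferred from the steps between low values, 86% to 90.7% of which lay within 0.15 of a whole read. Fold changes are given for called members, for the highest and lowest member of a comparison and always for *RPN4*, *UMP1*, *UBI4* and *CDC48*, and for up to 4 called genes of each further list. *PUP3* and *PRE2* in *AZF1* MoBY were named after their values were seen. The members and lists were chosen with earlier results of these data known. Alternatives were another pseudocount, no filter, no trend, median-ratio rescaling, a fit of all libraries, a replicate block and leaving out each library.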

Additional observations from a re-analysis of the deposited data

How the results depend on the processing

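With 2 libraries per group, called members kept their direction under each alternative, but many calls did not hold. In *AZF1* MoBY relative to MoBY control, the 2 members higher and 3 lower became 0 and 1 without the variance trend, 6 lower with all 8 libraries in the fit and 1 lower with the replicate block, and the median of the 36 genes became -0.10 after median-ratio rescaling. MoBY control relative to WT gave 7 higher, in place of 4, with all 8 libraries. The number of members whose *AZF1* MoBY and *azf1Δ* effects differed became 1 without the trend, 2 after rescaling and 2 with the replicate block, in place of 4. *CDC48* in *AZF1* MoBY was lost after rescaling (adjusted p = 0.0916), and *CDC48* and *PUP1* were lost with the replicate block (0.0804 and 0.0613). The sign of *CDC48* in *azf1Δ* relative to WT, not called, turned to -0.011 after rescaling. The cause of these shifts was not tested.

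Leaving out 1 library, where the lone library is assumed to vary like the other group, gave 0 to 1 members higher and 0 to 1 lower in *AZF1* MoBY, with a median of -0.20 to -0.11. It gave 0 to 1 higher in MoBY control relative to WT, with a median of 0.077 to 0.20, and 0 to 6 differing effects. Without either *AZF1* MoBY library no gene of the table was called, members included (for *PRE1*, adjusted p = 0.184 and 0.191). The fold changes of called members kept their signs, such as 0.39 to 0.51 for *RPN4* and 0.52 to 0.86 for *UBI4* in *AZF1* MoBY. Not called in any fit and of changing sign were *UBI4* in *azf1Δ* (-0.025 to 0.16) and *UMP1* in *AZF1* MoBY (-0.25 to 0.020). No member was called in *azf1Δ* relative to WT under any alternative, which says little, since the replicate block and each left-out library gave 0 calls in the whole table, and no filter or no trend gave 5. Letters A and B are not said to mark shared days, and the replicate differences of the groups correlated at -0.11 (*azf1Δ* and WT), -0.02 (*AZF1* MoBY and MoBY control) and 0.03 (MoBY control and WT) over 6105 genes. Rescaling moved the median gene by -0.05, 0.04 and 0.01 in these comparisons.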
